A study of Mus musculus with 4 samples.

Results

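Chromatin accessibility at the genes Rela, Map3k14 and Birc2 was measured by ATAC-seq in mouse fibroblasts that lacked either Kindlin-2 or Rela. The members are every region of both deposited tables whose assigned gene is 1 of these 3. They number 5 of 34172 regions: 2 in the table of the Kindlin-2 pair (Map3k14 and Birc2) and 3 in the table of the Rela pair (Rela, Map3k14 and Birc2). The first pair comprised Kindlin-2 K.O. and Kindlin-2 floxed kidney fibroblasts, and the second comprised Rela K.O. and Rela wt embryonic 3T3 fibroblasts. Kindlin-2 is a cytoplasmic partner of integrins that is needed for their activation, and the floxed alleles of the control carry recombination sites. Cells were used at passages 15 to 20 in medium with calf serum, with no further agent given in the labels, and 50000 cells entered each library. How the knockouts were made, and whether a culture was a clone, is not stated in the labels. Although 2 biological replicates were made of each genotype, per the design text, each had 1 deposited column. No difference below therefore has a replicate check, no test between genotypes was possible, and intervals in brackets are 95% exact intervals that cover counting error alone. Those that involve Kindlin-2 K.O. cells rest on the assumption that the values equal counts.

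Rela encodes p65, a subunit of the transcription factor NF-kB that carries a transactivation domain and works in the canonical pathway, downstream of receptors such as those for TNF and interleukin-1. Map3k14 encodes NIK, the NF-kB-inducing kinase, which starts the noncanonical pathway by activating IKK-alpha, so that the p100 precursor made from Nfkb2 is processed. Birc2 encodes cIAP1, a ubiquitin ligase that, together with TRAF2 and TRAF3, keeps NIK low in resting cells and that also ubiquitinates RIPK1 at the TNF receptor. In fibroblasts these pathways drive inflammatory and survival genes.

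All 5 member regions lay at promoters, with their centre 30 to 185 bp from the start of the assigned gene. The stretches of 250 bases before the RefSeq start of each gene (build GRCm38.p6) are shown because the member regions overlap them. Each of the 3 stretches lies wholly inside its region of the Rela table, while the regions of the Kindlin-2 table cover 178 of the 250 bases for Map3k14 and 224 for Birc2. RefSeq gives 2 starts for Birc2, and the one nearer to the start in the tables was used, so motifs before the other are not described here. The stretches are chr19:5637291-5637540 on the plus strand for Rela, chr11:103267402-103267651 on the minus strand for Map3k14 and chr9:7837058-7837307 on the minus strand for Birc2. They read from 5′ to 3′ along the gene, and capitals mark every match to the motifs named next.
Rela: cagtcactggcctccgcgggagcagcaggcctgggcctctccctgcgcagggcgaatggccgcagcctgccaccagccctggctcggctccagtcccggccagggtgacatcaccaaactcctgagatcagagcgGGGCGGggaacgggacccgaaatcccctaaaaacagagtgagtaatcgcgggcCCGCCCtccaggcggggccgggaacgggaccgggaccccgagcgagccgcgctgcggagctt
Map3k14: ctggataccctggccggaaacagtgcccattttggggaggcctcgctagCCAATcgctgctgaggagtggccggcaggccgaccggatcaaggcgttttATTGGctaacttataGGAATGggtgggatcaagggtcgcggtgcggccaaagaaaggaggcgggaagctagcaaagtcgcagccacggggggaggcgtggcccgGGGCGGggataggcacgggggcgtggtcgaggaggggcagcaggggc
Birc2: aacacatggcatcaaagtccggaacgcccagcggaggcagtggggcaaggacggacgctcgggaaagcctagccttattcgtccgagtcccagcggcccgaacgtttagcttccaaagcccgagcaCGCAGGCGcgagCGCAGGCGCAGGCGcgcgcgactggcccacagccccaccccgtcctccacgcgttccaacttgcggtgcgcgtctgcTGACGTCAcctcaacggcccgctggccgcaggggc

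Both strands were searched for 8 motifs: the GC box GGGCGG, the CCAAT box, the cAMP response element TGACGTCA, the AP-1 site TGANTCA, the ETS core CCGGAAG, the TEAD site GGAATG, the NRF1 core CGCANGCG and the kappaB consensus bound by NF-kB. The Rela stretch held 2 GC boxes, 1 on each strand. The Map3k14 stretch held 2 CCAAT boxes, 1 GC box and 1 TEAD site, of which the GC box lies outside the region of the Kindlin-2 table. The Birc2 stretch held 1 cAMP response element, 35 to 28 bases before the start, and 3 NRF1 core matches, between 124 and 99 bases before the start, of which 2 overlap each other. No match overlapped one of another motif. None of the 3 stretches held the kappaB consensus, the AP-1 site or the ETS core in these letters. Among 32851 RefSeq promoter stretches of the same length, 32.7% held the GC box, 33.8% the CCAAT box, 1.55% the cAMP response element and 6.75% the AP-1 site. The ETS core was in 6.91%, the TEAD site in 12.6%, the NRF1 core in 6.76% and the kappaB consensus in 7.25%. All 3 stretches were rich in G and C, with 70.4% for Rela, 65.2% for Map3k14 and 68.4% for Birc2, against a median of 52.4% over all stretches. The tables place the gene starts 58 bp (Rela), 71 bp (Map3k14) and 7 bp (Birc2) away from the RefSeq starts used here.

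The table of the Kindlin-2 pair held 5727 regions, with a median signal of 16 in knockout and in floxed cells alike. The table of the Rela pair held 28445 regions, with a median of 35 in Rela K.O. cells against 34 in Rela wt cells. Of the summed signal, 86.2% in Kindlin-2 K.O. and 91.8% in Kindlin-2 floxed cells lay in mitochondrial regions. The tables were normalized separately, so their levels are not compared. Of 14 fibroblast marker genes, 10 had a region in the Rela table, Pdgfra and Vim among them. In the Kindlin-2 table only Fn1 did, and Pdgfra, Vim and the other 11 had none. Fn1, the fibronectin gene, had 12 in Kindlin-2 K.O. and 26 in Kindlin-2 floxed cells, over 2-fold lower in the knockout. Summed over their 11 regions in the Rela table, the signal was 545 in Rela K.O. and 523 in Rela wt cells, and 2 regions were higher in Rela K.O. cells by 2-fold or more and 3 lower. Epithelial markers had regions for 3 of 8 genes in the Rela table and for 0 of 8 in the Kindlin-2 table. The epithelial sum was 38 in Rela K.O. and 81 in Rela wt cells, and a single region held 71 of the Rela wt sum. Of the 3 epithelial regions, 2 were higher in Rela K.O. cells by 2-fold or more and 1 was lower. Leukocyte markers had regions for 3 of 5 genes in the Rela table (summed signal 73 in Rela K.O. and 90 in Rela wt cells, with 1 of 4 regions higher in Rela K.O. cells by 2-fold or more and 0 lower) and for Ptprc alone in the Kindlin-2 table (27 in Kindlin-2 K.O. and 10 in Kindlin-2 floxed cells). No endothelial marker had a region in either table, and the part of other cell types in the differences below was not tested.

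The first comparison set kidney fibroblasts that lacked Kindlin-2 against cells with the floxed alleles. Both measured members, the NIK gene Map3k14 and the cIAP1 gene Birc2, had less signal in the knockout, by over 2-fold each as deposited. Birc2 was under 2-fold when log2 ratios were centred on its chromosome (-0.84) or on the 50 nearest regions (-0.83). The Map3k14 region (ENSMUSG00000020941, mm10 chromosome 11, 103267462 to 103267640) had a normalized signal of 12 in Kindlin-2 K.O. and 35 in Kindlin-2 floxed cells. That is a 2.92-fold lower signal in the knockout (1.44 to 6.42), with a log2 ratio, computed after adding 1 to both values, of -1.47. The Birc2 region (ENSMUSG00000057367, chromosome 9, 7836915 to 7837281) had 17 in Kindlin-2 K.O. and 42 in Kindlin-2 floxed cells, 2.47-fold lower in the knockout (1.33 to 4.78), with a log2 ratio of -1.26. In neither case did the counting interval of the ratio include equality, and in both cases it reached differences under 2-fold. Both intervals take the Kindlin-2 K.O. values as counts, because no scaling factor could be recovered for that column. Their true width is therefore unknown, and they could be wider.

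Of all regions of the Kindlin-2 table, 9.27% had at least 2-fold less signal in the knockout and 16.2% at least 2-fold more, and of its promoter regions 10.6% were lower and 9.06% higher. Among the 2671 promoter regions, 2.66% had a lower log2 ratio than Map3k14 and 4.90% a lower one than Birc2. The members were also set beside promoters whose mean signal was within 1.5-fold of their own. There the median log2 ratio was -0.25 over 1088 promoters for Map3k14 and -0.31 over 905 for Birc2, and 12.9% and 13.7% of these were at least 2-fold lower. Of those promoters, 3.77% lay below Map3k14 and 6.08% below Birc2. In Kindlin-2 K.O. cells the signal at Map3k14 exceeded that of 27.4% of all regions and the signal at Birc2 that of 54.0%, against 83.9% and 89.0% in Kindlin-2 floxed cells.

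No region of the Kindlin-2 table was assigned to Rela, and none overlapped the Rela gene body. The region of that table nearest to the Rela start was 275 kb away. The Rela promoter was therefore not measured in the Kindlin-2 pair. Fermt2, the gene of Kindlin-2, had no region there either, so these values do not check the Kindlin-2 knockout.

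**Figure D1:**
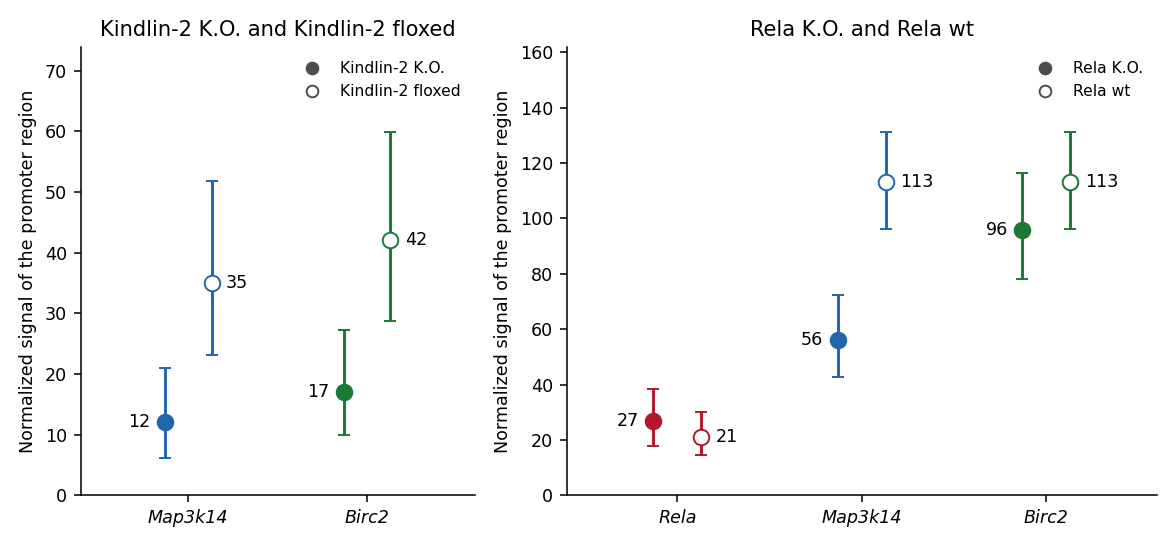
Normalized signal (y axis, from 0) of each member's promoter region, with Kindlin-2 K.O. (filled) and Kindlin-2 floxed cells (open) on the left and Rela K.O. (filled) and Rela wt cells (open) on the right; bars are 95% exact Poisson intervals for counting error alone. Map3k14 was lower in both knockouts (12 against 35, and 56 against 113), and the intervals of Birc2 do not meet in the Kindlin-2 pair (17 against 42) but do in the Rela pair (96 against 113). The bars of Kindlin-2 K.O. cells assume that the values equal counts.

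The second comparison set 3T3 fibroblasts that lacked Rela against wild-type 3T3 fibroblasts. Map3k14 had less signal without Rela, by 2-fold, while Birc2 and Rela itself differed by less than their counting error. The Map3k14 region (chromosome 11, 103267368 to 103267946) had 56 in Rela K.O. and 113 in Rela wt cells, 2.02-fold lower in the knockout (1.49 to 2.76). Its log2 ratio was -1, which is the 2-fold threshold itself once 1 is added to both values. The Birc2 region (chromosome 9, 7836733 to 7837455) had 96 in Rela K.O. and 113 in Rela wt cells, a ratio of 0.850 (0.657 to 1.10) and a log2 ratio of -0.23.

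The Rela region (ENSMUSG00000024927, chromosome 19, 5637247 to 5637615) had 27 in Rela K.O. and 21 in Rela wt cells, a ratio of 1.29 (0.725 to 2.16) and a log2 ratio of 0.35. Its signal was below the table's median in both genotypes. Promoter signal persisted in the Rela K.O. cells, and as the deleted part of the gene is not stated in the labels, this region does not check the knockout.

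In the Rela pair, 21.0% of all regions had at least 2-fold less signal in the knockout and 22.4% at least 2-fold more, and among promoter regions 13.1% were lower and 13.0% higher. Of 3 members, Map3k14 was called lower and none higher. Of 8061 promoter regions, 12.5% had a lower log2 ratio than Map3k14, 39.5% a lower one than Birc2 and 67.6% a lower one than Rela. Among promoters with a mean signal within 1.5-fold of its own, Map3k14 stood lower: 7.09% of 2765 had a smaller log2 ratio, 7.31% were at least 2-fold lower and their median was 0. The Birc2 and Rela values lay in the middle of such promoters, with 35.4% of 2336 below Birc2 and 66.8% of 2064 below Rela.

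Set side by side, Map3k14 had log2 ratios of -1.47 in the Kindlin-2 pair (-2.68 to -0.52) and -1 in the Rela pair (-1.46 to -0.57), intervals that overlap. Birc2 had -1.26 in the Kindlin-2 pair (-2.26 to -0.41) and -0.23 in the Rela pair (-0.61 to 0.13), which also overlap. Such overlap does not show that the pairs are alike. The intervals are those of the ratios without the added 1, which the log2 ratios carry. The Birc2 values of the Kindlin-2 pair rested on about 17 implied counts in the knockout, where a factor of 1 was assumed, and 30.9 in floxed cells, and those of the Rela pair on about 101 in the knockout and 165 in wild-type cells. The pairs differ in cell type as well as in the gene removed, and the difference between them was not tested. The regions themselves coincide: the whole 178 bp Map3k14 region of the Kindlin-2 table lies inside the 578 bp region of the Rela table, and the whole 366 bp Birc2 region lies inside one of 722 bp.

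**Figure D2:**
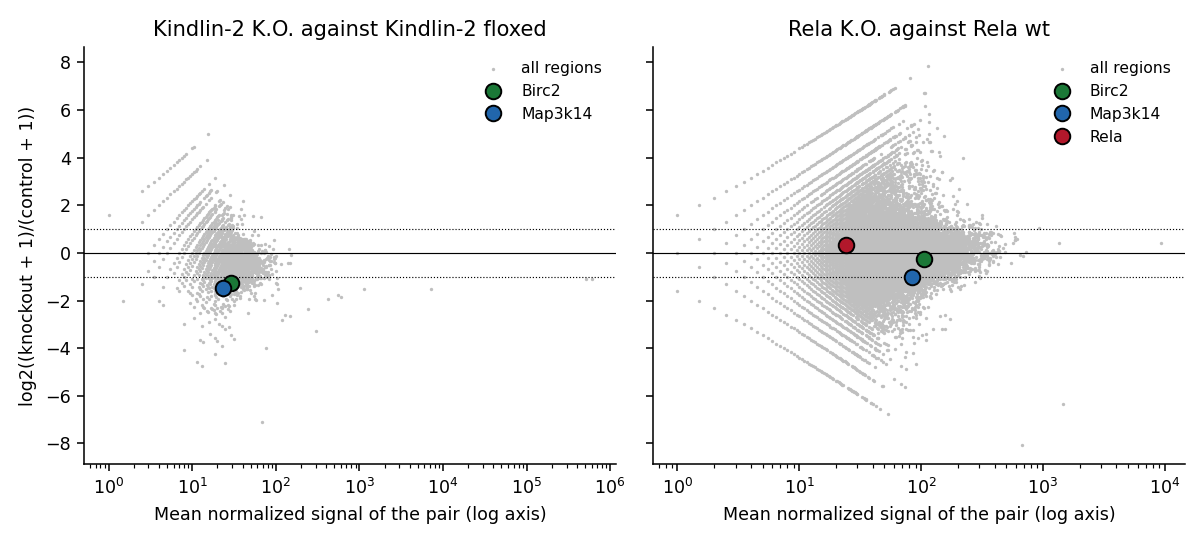
Log2 ratio of knockout over control (y axis) against mean normalized signal (x axis, log scale) for every region with a mean of at least 1 (grey) and for the members (coloured), in the Kindlin-2 pair on the left and the Rela pair on the right; dotted lines mark 2-fold. Map3k14 (-1.47) and Birc2 (-1.26) lie below the lower line on the left, and on the right Map3k14 (-1) lies on it while Birc2 (-0.23) and Rela (0.35) lie between the lines.

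The order of the members was read per length, as signal per 100 bp of region. In Rela K.O. cells Birc2 came first with 13.3, followed by Map3k14 with 9.69 and Rela with 7.34, and neither neighbouring pair differed beyond counting error (1.37-fold, 0.984 to 1.92, and 1.32-fold, 0.842 to 2.19). In Rela wt cells the order ran from Map3k14 with 19.6 over Birc2 with 15.7 to Rela with 5.71. Map3k14 and Birc2 had the same signal there, 113. Their 1.25-fold difference per length (1.001 to 1.56) thus came from region width alone, 578 bp against 722 bp. Per length, Birc2 exceeded Rela by 2.74-fold (1.84 to 4.12). In the Kindlin-2 pair Birc2 had the higher signal in both genotypes, in a region of 366 bp against 178 bp for Map3k14. Per length Map3k14 was the denser, with 6.74 against 4.64 for Birc2 in Kindlin-2 K.O. cells (1.45-fold, 0.632 to 3.22). In Kindlin-2 floxed cells it had 19.7 against 11.5 (1.71-fold, 0.984 to 3.00). Both intervals included equality.

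The other genes of the pathway were taken from a list of 84 genes in 8 roles. In the Kindlin-2 pair 18 of them had a region. At least 2-fold lower in the knockout were 2 of 18 (11.1%), against 11.3% of all 2480 genes with a symbol, and these 2 were Map3k14 and Birc2 themselves. At least 2-fold higher were 0 of 18, against 8.79% of all such genes. These calls were made with 1 added to both values. Without it, Il1r1 was 2-fold higher, with 8 in Kindlin-2 K.O. and 4 in Kindlin-2 floxed cells (0.470 to 11.5, log2 ratio 0.85). Peli1 was 2-fold lower without it, with 12 in Kindlin-2 K.O. and 24 in Kindlin-2 floxed cells. Taking each gene's mean log2 ratio, the list's median was -0.25, beside -0.15 over all genes, and -0.13 for the 16 list genes that are not members.

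Among the partners that hold NIK in check and the genes downstream of it, Traf3, whose product recruits NIK for degradation, had 13 in Kindlin-2 K.O. and 7 in Kindlin-2 floxed cells (log2 ratio 0.81). Nfkb2, the source of p100, had 26 in Kindlin-2 K.O. and 24 in Kindlin-2 floxed cells (0.11). The subunit gene Rel had 20 in Kindlin-2 K.O. and 12 in Kindlin-2 floxed cells (0.69). None of the 3 passed 2-fold, and the counting interval of each ratio included equality (for Traf3 0.639 to 6.84). Closest to the threshold on the lower side were Peli1, a ubiquitin ligase gene of Toll-like receptor signalling (12 in Kindlin-2 K.O. and 24 in Kindlin-2 floxed cells, log2 ratio -0.94), and Rnf31, which encodes the catalytic subunit of the linear ubiquitin ligase LUBAC (20 in Kindlin-2 K.O. and 38 in Kindlin-2 floxed cells, -0.89). Birc6, the other measured gene of the IAP family, had 56 in Kindlin-2 K.O. and 98 in Kindlin-2 floxed cells (-0.80).

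In the Rela pair 44 of the 84 genes had a region. Of these, 7 (15.9%) had a region at least 2-fold lower in the knockout, against 13.9% of all 7217 genes with a symbol, and 2 (4.55%) had one at least 2-fold higher, against 13.4%. The median was -0.13 over the list and -0.03 over all genes. The kinases upstream of NF-kB held 4 of the 7 lower genes among 10 measured. Besides Map3k14 these were Ripk1, the kinase scaffold of the TNF receptor complex, with 19 in Rela K.O. and 100 in Rela wt cells (5.26-fold lower, 3.28 to 8.85). Map3k7, which encodes the IKK-activating kinase TAK1, had 39 in Rela K.O. and 89 in Rela wt cells (2.28-fold lower, 1.60 to 3.33). Irak2, a kinase of interleukin-1 and Toll-like receptor signalling, had 21 in Rela K.O. and 43 in Rela wt cells at its promoter and a log2 ratio of -1, at the threshold like that of Map3k14. A second Irak2 region, 4743 bp from the start, had 12 in Rela K.O. and 6 in Rela wt cells. The other 6 genes of this role stayed within 2-fold by log2 ratio, with 1 added to both values. They ran from Tab2, with 38 in Rela K.O. and 76 in Rela wt cells (log2 ratio -0.98), to Tab3, with 95 in Rela K.O. and 54 in Rela wt cells (0.80).

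Among the adaptors, 1 of 8 measured genes was lower. A region 2695 bp from the start of Traf2, which tethers cIAP1 to the receptor complex, had 5 in Rela K.O. and 24 in Rela wt cells (4.80-fold lower, 1.97 to 16.5), and the Traf2 promoter had 24 in Rela K.O. and 45 in Rela wt cells (log2 ratio -0.88). Traf3 had 30 in Rela K.O. and 29 in Rela wt cells. In the IAP family, a region 4927 bp from the start of Birc6 had 9 in Rela K.O. and 88 in Rela wt cells (9.78-fold lower, 5.27 to 23.1), while the Birc6 promoter had 176 in Rela K.O. and 228 in Rela wt cells (-0.37).

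All 5 genes of NF-kB subunits were measured in the Rela pair, and none passed 2-fold. Relb, the partner of the Nfkb2 product in the noncanonical pathway, had 67 in Rela K.O. and 36 in Rela wt cells (log2 ratio 0.88). Rel had 177 in Rela K.O. and 140 in Rela wt cells (0.34), and Nfkb2 had 251 in Rela K.O. and 214 in Rela wt cells (0.23). Nfkb1, the gene of the p105 precursor of p50, had 39 in Rela K.O. and 42 in Rela wt cells (-0.10). The 2 measured IkB inhibitor genes, Nfkbia and Nfkbiz, had log2 ratios of 0.72 and 0.74. Chuk, which encodes IKK-alpha, the kinase that NIK activates, had 21 in Rela K.O. and 16 in Rela wt cells (0.37).

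Of 11 ubiquitin regulators, Cyld, a deubiquitinase that opposes NF-kB signalling, was the 1 higher in the knockout. Its promoter had 358 in Rela K.O. and 133 in Rela wt cells (2.69-fold higher, 2.25 to 3.21), and a second region had 26 in Rela K.O. and 4 in Rela wt cells (6.50-fold higher, 2.53 to 18.5). Tnip2, an A20-binding inhibitor gene, was lower, with 13 in Rela K.O. and 35 in Rela wt cells (2.69-fold, 1.43 to 5.13). Of 6 receptor genes, Tlr2 had 53 in Rela K.O. and 18 in Rela wt cells (2.94-fold higher, 1.85 to 4.97). None of 10 ligand genes had a region in either table. Once the chromosome median was taken off, the log2 ratio was 0.97 for Tlr2, 0.81 for the Cyld promoter and -0.83 for the Irak2 promoter. Relative to the 50 nearest regions it was 0.94 for Tlr2, 0.30 for the Cyld promoter, -0.52 for the Irak2 promoter and -0.80 for Tnip2. All of these were under 2-fold. Under these centrings the second Cyld region had 1.82 and 1.31, and Ripk1 had -1.55 and -1.28.

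**Figure D3:**
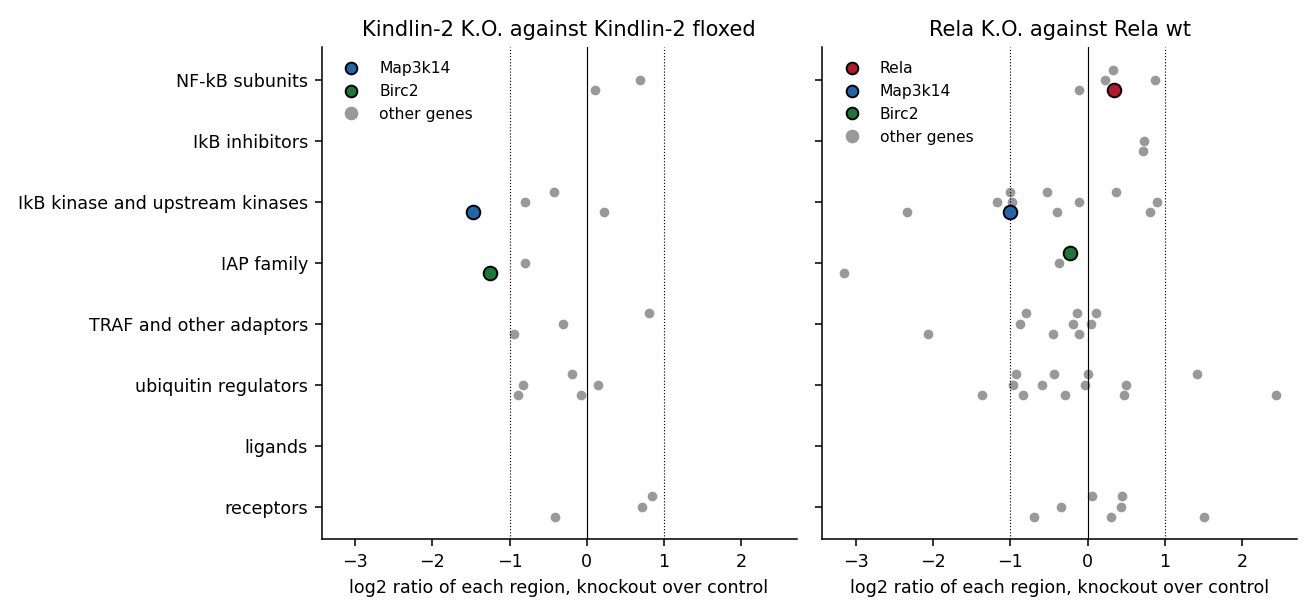
Log2 ratio of knockout over control (x axis) for each region of the pathway genes, by role (y axis), in the Kindlin-2 pair on the left and the Rela pair on the right; each point is a region, members are coloured and dotted lines mark 2-fold. On the left the members Map3k14 (-1.47) and Birc2 (-1.26) are the 2 points beyond 2-fold, and on the right the lowest point is the distal Birc6 region (-3.15).

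Accessibility around the members was then described within 500 kb. In the Kindlin-2 pair the Birc2 region had 1 neighbour, the promoter of Tmem123 at 73.2 kb, with 6 in Kindlin-2 K.O. and 37 in Kindlin-2 floxed cells (log2 ratio -2.44), lower still than Birc2. The next gene-assigned region on the other side, at Cep57, was 5990 kb away and had 20 in Kindlin-2 K.O. and 45 in Kindlin-2 floxed cells (-1.13). Chromosome 9 held 91 regions in this table, with a median log2 ratio of -0.42, and relative to that median Birc2 had -0.84. The part of the chromosome in the lower Birc2 signal was not tested. The Map3k14 region had 3 neighbours with log2 ratios from -0.58 to 0, all above its own, and the median of the 296 regions on chromosome 11 was -0.14.

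In the Rela pair the neighbours of Birc2 differed in both directions. Of 13 regions, 6 had at least 2-fold more signal in the knockout and 3 at least 2-fold less. Tmem123 on one side had 196 in Rela K.O. and 179 in Rela wt cells, and Yap1, the gene of a transcriptional coactivator, on the other had 174 in Rela K.O. and 78 in Rela wt cells (2.23-fold higher, 1.76 to 2.84). The lowest value was that of the matrix protease gene Mmp3, with a log2 ratio of -3.83. Birc2, at -0.23, was above 3 of its 13 neighbours and below the other 10.

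Map3k14 in the Rela pair had 14 neighbours with a median log2 ratio of -0.01, of which 1 was lower than Map3k14. This was a region with no assigned gene, 44.8 kb upstream of the Map3k14 start (chromosome 11, 103312025 to 103312579), with 28 in Rela K.O. and 87 in Rela wt cells (3.11-fold lower, 2.03 to 4.70). A region inside the Map3k14 gene body, 20.9 kb downstream of the start and with no assigned gene, had 52 in Rela K.O. and 42 in Rela wt cells (1.24-fold, 0.854 to 1.83). The upstream region was also present in the Kindlin-2 table, with 10 in Kindlin-2 K.O. and 14 in Kindlin-2 floxed cells, a ratio of 0.714 (0.274 to 1.97). Both unassigned regions were named after their values were seen. Around Rela, 33 regions had a median of 0.12, and the promoters on either side, of the acetyltransferase gene Kat5 (49 in Rela K.O. and 38 in Rela wt cells, log2 ratio 0.36) and of Sipa1 (36 in Rela K.O. and 22 in Rela wt cells, 0.69), had ratios on the same side as that of Rela.

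**Figure D4:**
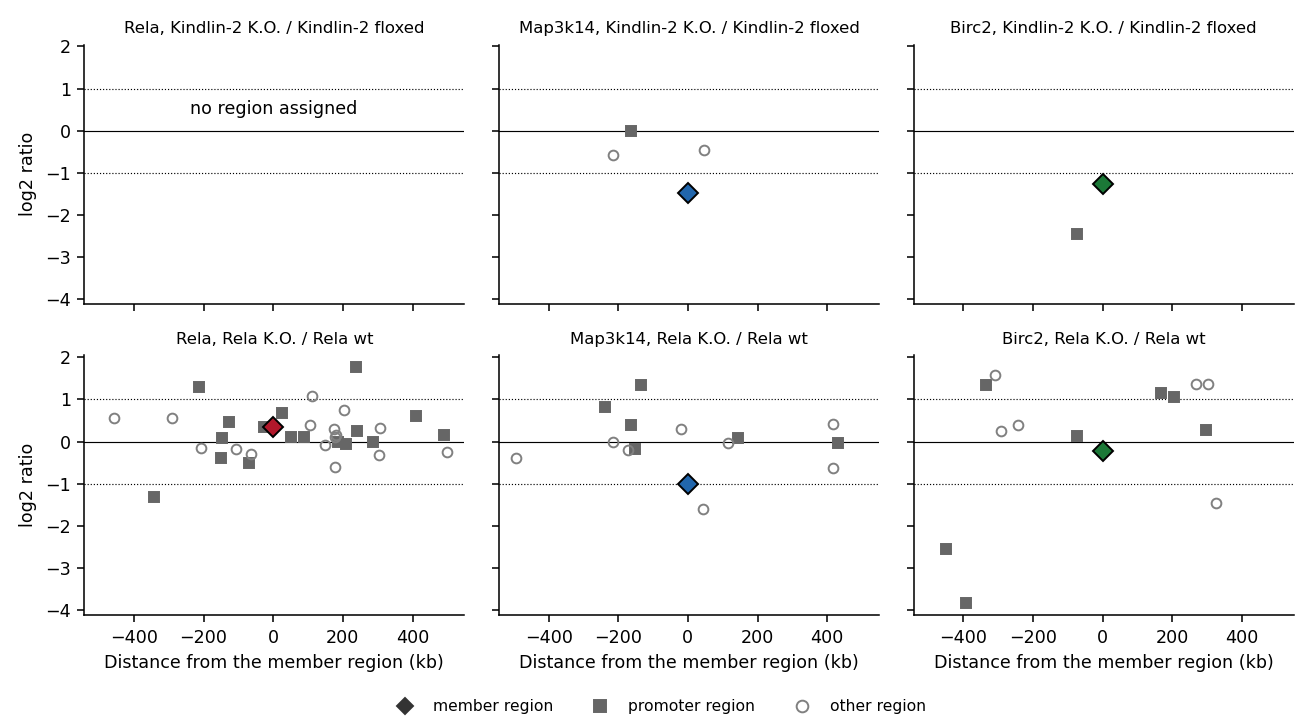
Log2 ratio of knockout over control (y axis) of every region within 500 kb of each member region, against its distance in kb (x axis), in the Kindlin-2 pair (top) and the Rela pair (bottom); diamonds are members, squares promoter regions and circles other regions, and dotted lines mark 2-fold. In the Kindlin-2 pair Birc2 has 1 neighbour, which is lower than it, while Map3k14 lies below all 3 of its neighbours and, in the Rela pair, below 13 of 14.

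Likeness to the members was measured over 2131 genes with a promoter region in both tables, as the Euclidean distance over the 4 values log2(signal + 1), 1 per genotype. Nearest to Map3k14 were F2r, Znfx1 and G3bp2, at distances of 0.37, 0.39 and 0.42. F2r, the thrombin receptor gene, had 12 in Kindlin-2 K.O. and 29 in Kindlin-2 floxed cells, as well as 52 in Rela K.O. and 133 in Rela wt cells. Ptpn4 and Hk2 were among the genes nearest to Birc2, at distances of 0.27 and 0.33. Hk2, which encodes hexokinase 2, had 19 in Kindlin-2 K.O. and 41 in Kindlin-2 floxed cells, as well as 95 in Rela K.O. and 92 in Rela wt cells.

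The members' log2 ratios were recomputed under 7 other settings. Among these, centring on the median of all regions left every member value as it was. Map3k14 stayed at least 2-fold lower under all 7 in the Kindlin-2 pair (-1.51 to -1.23) and under 6 in the Rela pair (-1.26 to -0.95), the exception being a pseudocount of 5. Birc2 in the Kindlin-2 pair was at least 2-fold lower under 5 of the 7, all but the centrings named above. In the Rela pair Birc2 and Rela were within 2-fold under every setting, and centring on the chromosome brought Birc2 to 0.01, the 1 change of sign.

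**Figure D5:**
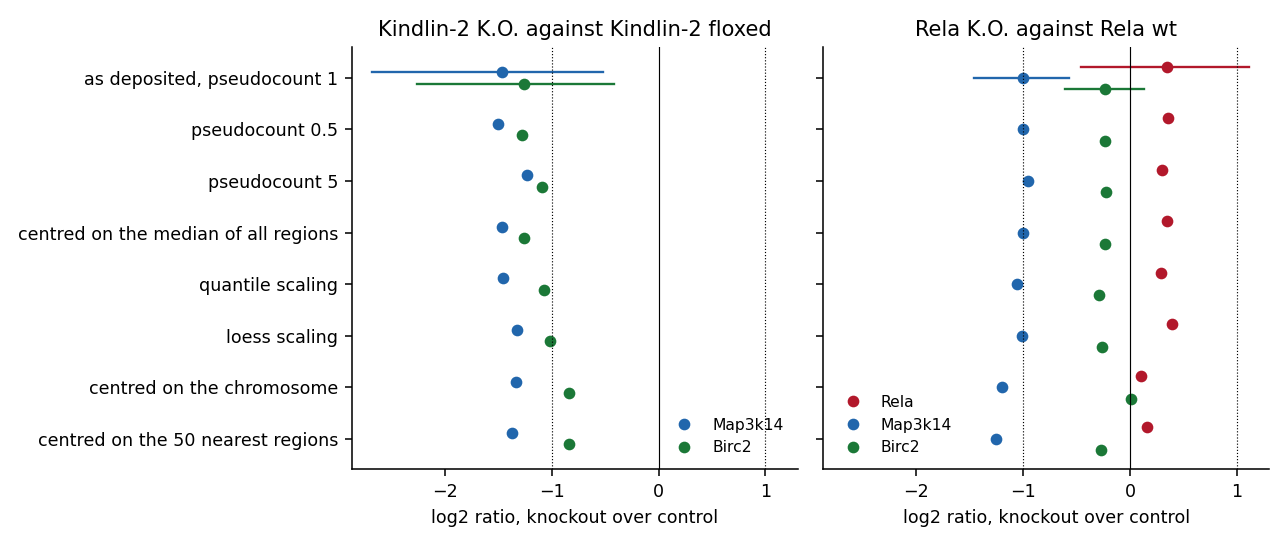
Log2 ratio of knockout over control (x axis) of each member region under the setting as deposited and 7 alternatives (y axis), in the Kindlin-2 pair on the left and the Rela pair on the right; horizontal lines are 95% intervals for counting error alone and dotted lines mark 2-fold. Map3k14 lies between -1.51 and -1.23 on the left and between -1.26 and -0.95 on the right. The horizontal lines are intervals of ratios without an added pseudocount.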

How the data were processed

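ATAC-seq, in which the Tn5 transposase inserts adapters into open chromatin, was run on 4 genotypes. Per the submitters' processing notes, which give no role or order, the tools were STAR 2.4.2a, MACS2, DESeq2, Trimmomatic 0.33, Picard 1.136, bedtools, deepTools and FastQC, with mm10 as the build. Tn5 shift, duplicate handling and region calling are not stated there. Per the labels' table names, the values the authors deposited are a background-corrected score in whole numbers, normalized the DESeq way within each table, in 1 column per genotype; how replicates were combined is not stated, nor whether starts count from 0 or 1.

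Each region with a mean of at least 1 received log2((knockout + 1)/(control + 1)), and 2-fold was the calling threshold. A region counted as a promoter where its centre was at most 2500 bp from the gene start. The limma or edgeR tests planned for replicate columns could not be run. Gaps and peaks among low values implied scaling factors of 1.36 (Kindlin-2 floxed), 0.949 (Rela K.O.) and 0.683 (Rela wt), and none for Kindlin-2 K.O. (at most 14.9% of the deviance), which was given a factor of 1; its depth is unknown if the column blends separately scaled libraries. Implied counts gave Clopper-Pearson intervals of ratios, which leave out errors of background correction. The code was tested on simulated data. Promoter sequences came from RefSeq (3 of 3 members matched). Named were all member regions, pathway genes past 2-fold (at most 20 per pair), the nearest gene-assigned neighbours and the 3 most similar genes, 1 of which is not reported here; values under 2-fold were given for further list genes by role. Members and lists were chosen with earlier results of these data known. Python 3.11.15, scipy 1.17.1 and statsmodels 0.14.6 were used.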

Additional observations from a re-analysis of the deposited data

How the results depend on the processing

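With 1 column per genotype, no library could be left out. No paired analysis was possible because each genotype had 1 column and no test was made. Of 83 recomputed values, 74 stayed within the counting interval or, for counts, within 1.5 times, and 9 did not. The counting interval is a wide limit that was not made for changes of scaling. Birc2 under 2-fold in the Kindlin-2 pair (-0.84 and -0.83) and its change of sign in the Rela pair (0.01) thus count as staying. The 74 include those centred on the median of all regions, a setting that changed no value. Pathway genes lower in the Kindlin-2 K.O. numbered 2 as deposited, 1 when log2 ratios were centred on the chromosome, 1 when centred on the 50 nearest regions (Birc2 dropped out in both), 7 at a 1.5-fold threshold and 0 at 3-fold. Those higher numbered 0, and 4 at 1.5-fold. In the Rela K.O., 7 were lower as deposited, 14 at 1.5-fold and 3 at 3-fold, and 2 were higher, 7 at 1.5-fold and 1 at 3-fold. At the 2-fold threshold those lower numbered 5 with a pseudocount of 5, 8 when centred on the 50 nearest regions and 9 under quantile scaling. Those higher numbered 3 when centred on the 50 nearest regions. Changing the threshold changes these counts by construction. The chromosome 9 median was -0.42, and the cause of the drop under centring was not tested. Member values of the Kindlin-2 floxed cells rest on 25.7 and 30.9 implied counts, and those of the Rela region on 28.5 in Rela K.O. and 30.7 in Rela wt cells. The depth behind the Kindlin-2 K.O. values is unknown.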

Other observations

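Of 2131 genes with a promoter region in both tables, 234 (11.0%) were at least 2-fold lower in Kindlin-2 K.O. than in Kindlin-2 floxed cells, and 132 (6.19%) were at least 2-fold lower in Rela K.O. than in Rela wt cells. Map3k14 was 1 of 17 genes lower in both. These make up 7.26% of the first set, near the 6.19% over all 2131 genes. They make up 12.9% of the second set, near the 11.0% over all 2131. The others include E2f7, a cell cycle repressor gene, the chromatin remodeller gene Chd1, the kinase gene Nuak1, F2r and G3bp2. F2r and G3bp2 were named above as near to Map3k14. That likeness uses the same 4 values as the ratios, so it is no separate observation. The genes named beside Map3k14 were chosen after their values were seen, and no test was made.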
